A study of Mus musculus with 20 samples.

Results

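RNA of the keratin genes was described in tumours that the mouse colon carcinoma line MC38 formed under the skin. The members were all rows of the deposited table whose symbol is Krt followed by a number and, in some, a letter from a to c, which gave 52 of 23402 rows. Keratin-associated protein genes and genes such as Krtdap and Krtcap2 fall outside that rule. There were 20 libraries of tumour tissue, 10 from tumours that received vehicle (Control) and 10 from tumours that received ATBx by a peri-tumoral route (P.T.ATBx). ATBx often stands for antibiotics, but the agent, dose, time, mouse strain, sex and age are not labelled. Whether libraries and animals correspond 1 to 1 is not stated either, so a p-value here refers to the spread among libraries, part of which may be technical. The study title concerns microbial burden and interferon signalling in tumours.

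Keratins are the intermediate filament proteins of epithelial cells. A filament forms from pairs of 1 acidic type I keratin and 1 basic type II keratin, and each kind of epithelium has its own pairs. Simple epithelia, the single-layered linings of gut, ducts and glands, use Krt8 with Krt18, with Krt7, Krt19 and Krt20 in subsets. The basal layer of the epidermis uses Krt5 with Krt14, the layers above it Krt1 with Krt10, and hair follicles a large set of their own. Tumours grown under the skin lie next to epidermis, hair follicles, fat, muscle and, in many sites, mammary ducts, whose inner cells carry simple keratins and whose outer cells carry Krt5, Krt14 and Krt17.

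Of the 52 keratin rows, 5 were grouped as simple epithelial keratins (Krt7, Krt8, Krt18, Krt19, Krt20), 39 as skin and hair keratins and 8 as mucosal, corneal and other keratins. In 19 rows the value was listed at 0 in every library, and 33 were above 0 in at least 1 library. Levels are FPKM, fragment numbers divided by the length of the gene and the size of the library, so levels of different genes can be set side by side. Only 9 keratins reached a mean of 0.5 FPKM over the 20 libraries, the level required for testing: Krt19, Krt18, Krt8, Krt7, Krt10, Krt14, Krt5, Krt80 and Krt17. The remaining 24 with any value had means of at most 0.368 FPKM. Of the 51 rows matched by gene number to RefSeq (GRCm38), 27 lie on chromosome 11, the type I cluster, and 24 on chromosome 15, the type II cluster, which also holds the type I gene Krt18.

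Libraries differed in composition within both groups. Between 15527 and 16345 rows were above 0 in a library, and summed FPKM ran from 556770 to 752782. The RNase P and RNase MRP RNAs Rpph1 and Rmrp took 7.75% to 20.5% of the sum. Read totals are unknown, and the step between low values gave a relative depth that ranged 1.59-fold. Control 1, Control 3, P.T.ATBx 1 and P.T.ATBx 4 had the 4 highest sums, and results are also given without them where that changes a direction. In bulk tissue, fewer cells of a type and less RNA per cell cannot be told apart.

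**Figure D1:**
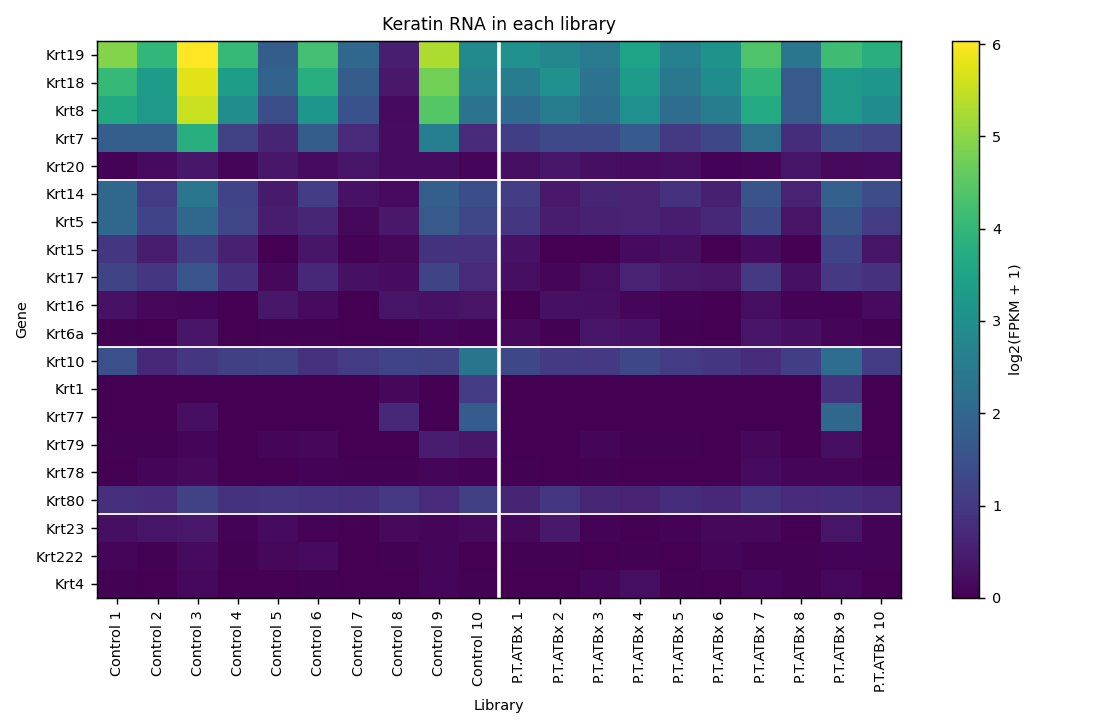
Heat map of log2(FPKM + 1) for 20 keratin genes (rows, in blocks of simple, basal with barrier-alarm, suprabasal, and other keratins) in each of 20 libraries (columns, Control left of the white line). The rows Krt19 to Krt7 are brightest in Control 3 and Control 9 and darkest in Control 8, Krt14, Krt5, Krt15 and Krt17 are also bright in Control 3, and Krt1 and Krt77 show in Control 10 and P.T.ATBx 9.

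The simple keratins Krt19, Krt18, Krt8 and Krt7 had the highest means of all members. In Control they had the widest fold ranges of the 9 tested, a ranking that depends on Control 8. Krt19, a type I keratin of ducts and glands, ran from 0.428 to 64.6 FPKM in Control with a median of 15.2, but from 4.17 to 19.7 with a median of 7.49 in P.T.ATBx. Krt18, the type I partner of Krt8, ran from 0.335 to 53.7 FPKM in Control (median 9.07) and from 2.20 to 14.4 in P.T.ATBx (median 6.98). Krt8, the type II partner, ran from 0.125 to 44.8 FPKM in Control (median 7.51) and from 2.24 to 11.9 in P.T.ATBx (median 4.92). Krt7, a type II keratin of ductal epithelia, ran from 0.145 to 12.7 FPKM in Control (median 1.86) and from 0.731 to 3.66 in P.T.ATBx (median 1.49). In all of these genes Control 8 was the lowest and Control 3 the highest of the 20 libraries, with Control 9 second, and the P.T.ATBx values lay inside the Control range.

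Within Control the spread was 151-fold for Krt19, 160-fold for Krt18, 358-fold for Krt8 and 87.6-fold for Krt7. Each low end was Control 8 alone, and the next lowest Control values were 2.46, 2.42, 1.72 and 0.551 FPKM in that order. Without Control 8 each spread would be narrower than the 30.9-fold of Krt5 in Control. Within P.T.ATBx the spread was 4.72-fold to 6.51-fold for these simple keratins, less than the 12.2-fold of Krt17, the 7.87-fold of Krt14 and the 7.82-fold of Krt5. P.T.ATBx 8 was the lowest and P.T.ATBx 7 the highest of their group for Krt19, Krt18, Krt8 and Krt7. The proportions between these genes varied less than their levels. The Krt18 to Krt8 ratio of FPKM had a median of 1.32 in Control against 1.22 in P.T.ATBx, and lay between 0.982 and 1.49 in the 10 P.T.ATBx libraries. In Control the Krt18 to Krt8 ratio ran from 1.05 to 2.68, the Krt19 to Krt8 ratio from 1.43 to 3.42 and the Krt7 to Krt8 ratio from 0.173 to 1.16. Each of these 3 ratios was highest in Control 8, where all 4 genes were at their lowest.

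Krt20, the keratin of differentiated intestinal epithelium, did not share that pattern. It was low, from 0.0344 to 0.319 FPKM in Control (median 0.146) and from 0.0370 to 0.313 in P.T.ATBx (median 0.160). Its highest Control value was in Control 5, which was among the lower libraries for Krt8 at 1.72 FPKM. After scaling by relative depth, every Krt20 value was a whole multiple of its smallest within a tolerance of 0.1, and the largest was 13.0 times the smallest, so few fragments lie behind it.

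**Figure D2:**
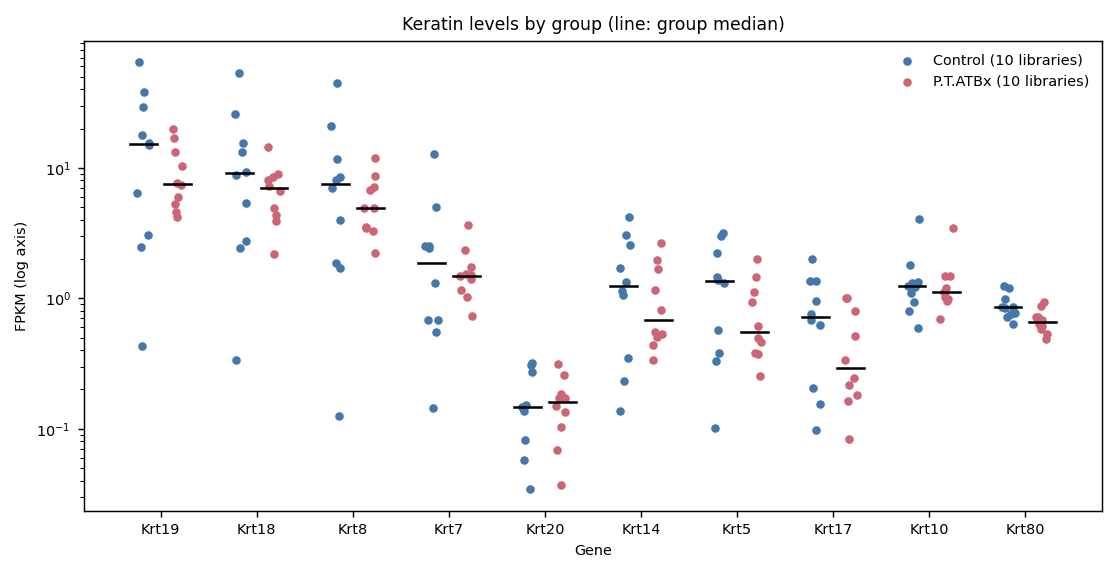
FPKM on a log axis for the 9 tested keratin genes and Krt20, with 1 point per library and a black line at the median of each group. The Control points of Krt19, Krt18, Krt8 and Krt7 span 87.6-fold to 358-fold, the P.T.ATBx points lie within that range, and Krt80 and most Krt10 points lie close together.

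The sequence upstream of each start site is shown for the simple keratins Krt8, Krt18 and Krt7 and the basal keratin Krt5, whose RNA varied together across the Control libraries, and for Krt10, which was not shown to vary with them. Each run is from RefSeq (GRCm38.p6), 5′ to 3′ on the strand of the gene, from 250 bases before the start to 50 bases after it. For Krt10 the start used lies inside the RefSeq gene, which runs from 99385254 to 99397449 on chromosome 11. Capitals mark matches on either strand to 1 of 4 motifs: TATAAA, known from core promoters, the element TGANTCA of the AP-1 factors, GGGCGG, which is known as a site for Sp1, and CCAAT, known as a site for NF-Y.
Krt8 (chr15:102004293-102004592, minus strand): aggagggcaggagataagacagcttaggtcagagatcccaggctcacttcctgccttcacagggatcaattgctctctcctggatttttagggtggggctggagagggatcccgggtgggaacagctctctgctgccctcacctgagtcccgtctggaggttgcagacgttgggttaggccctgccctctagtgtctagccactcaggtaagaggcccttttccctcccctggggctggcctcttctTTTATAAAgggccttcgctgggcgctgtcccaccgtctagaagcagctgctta
Krt18 (chr15:102027966-102028265, plus strand): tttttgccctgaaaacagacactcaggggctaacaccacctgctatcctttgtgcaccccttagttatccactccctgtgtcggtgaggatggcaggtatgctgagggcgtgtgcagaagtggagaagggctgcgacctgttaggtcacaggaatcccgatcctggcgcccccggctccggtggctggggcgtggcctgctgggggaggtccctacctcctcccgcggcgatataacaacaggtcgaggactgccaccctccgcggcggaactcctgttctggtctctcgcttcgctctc
Krt7 (chr15:101412153-101412452, plus strand): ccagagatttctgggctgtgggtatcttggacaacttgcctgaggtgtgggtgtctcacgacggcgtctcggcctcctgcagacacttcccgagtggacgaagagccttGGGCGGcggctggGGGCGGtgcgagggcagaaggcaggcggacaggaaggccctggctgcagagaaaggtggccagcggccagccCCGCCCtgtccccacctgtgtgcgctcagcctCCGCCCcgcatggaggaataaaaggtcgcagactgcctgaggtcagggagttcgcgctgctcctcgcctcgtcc
Krt5 (chr15:101712856-101713155, minus strand): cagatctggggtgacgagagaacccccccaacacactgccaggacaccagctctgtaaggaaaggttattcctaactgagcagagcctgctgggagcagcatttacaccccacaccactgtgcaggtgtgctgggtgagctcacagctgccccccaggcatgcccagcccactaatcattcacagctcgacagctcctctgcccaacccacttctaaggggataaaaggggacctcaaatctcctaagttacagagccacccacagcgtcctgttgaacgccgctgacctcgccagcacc
Krt10 (chr11:99389315-99389614, minus strand): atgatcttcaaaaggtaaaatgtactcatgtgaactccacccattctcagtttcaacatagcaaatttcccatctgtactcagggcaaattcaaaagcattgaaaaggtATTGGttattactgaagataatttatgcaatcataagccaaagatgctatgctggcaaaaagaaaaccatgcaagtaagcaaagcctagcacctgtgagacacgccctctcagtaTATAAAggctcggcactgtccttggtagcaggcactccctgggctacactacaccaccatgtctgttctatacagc

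Krt8 (chromosome 15, 101996711 to 102004342) and Krt18 (chromosome 15, 102028216 to 102032026) lie next to each other at the end of the type II cluster. The Krt8 window held overlapping TATAAA matches on both strands at its start site, the Krt7 window held 4 GGGCGG matches, and the Krt10 window held 1 TATAAA match, whose position is -26 from the start, and 1 CCAAT match on the other strand. The windows of Krt18 and Krt5 held none of these motifs. Among all 32851 promoter windows of this length, TATAAA was in 13.6%, TGANTCA in 7.81%, GGGCGG in 35.7% and CCAAT in 37.4%. Among 36 windows of 35 keratin genes, TATAAA was in 19, TGANTCA in 2, GGGCGG in 2 and CCAAT in 14. A match is a description of letters and not a bound site.

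The basal keratins Krt14 and Krt5 had lower medians than Krt19, Krt18, Krt8 and Krt7. They shared the highest library of those genes in Control but not in P.T.ATBx. Krt14, the type I basal keratin, ran from 0.138 to 4.18 FPKM in Control (median 1.23) and from 0.334 to 2.63 in P.T.ATBx (median 0.681). Krt5, its type II partner (chromosome 15, 101707069 to 101712905), ran from 0.102 to 3.14 FPKM in Control (median 1.35) and from 0.254 to 1.99 in P.T.ATBx (median 0.552). For both genes Control 3 was highest and Control 1 second, and in P.T.ATBx the highest library was P.T.ATBx 9, at 2.63 FPKM for Krt14 and 1.99 for Krt5.

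Krt15, a keratin of basal and hair follicle bulge cells, was below the testing level, with 0 to 1.19 FPKM in Control and 0 to 1.30 in P.T.ATBx. Its value was 0 in 1 library of Control and in 4 of P.T.ATBx, and its highest values lay again in Control 3 and P.T.ATBx 9. Krt17, a keratin of appendages, of mammary basal cells and of stressed epidermis, ran from 0.0971 to 2.01 FPKM in Control (median 0.724) and from 0.0827 to 1.01 in P.T.ATBx (median 0.291). Its stress-related companions were lower still, with Krt16 at 0.311 FPKM or less and Krt6a at 0.285 or less in every library, and Krt6b was listed at 0 throughout. In windows of 50 bases, 43.6% of the Krt6a transcript was identical to Krt6b, 12.4% of Krt16 to Krt14 and 11.4% of Krt14 to Krt16, so the split of fragments in these pairs is uncertain. Krt8, Krt18, Krt19, Krt7 and Krt10 had 0 such windows in common with any other keratin.

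In Control the suprabasal keratins Krt10, Krt1 and Krt77 were highest in Control 10, and not in Control 3. In P.T.ATBx they were highest in P.T.ATBx 9, as were the basal keratins Krt14, Krt5 and Krt15. Krt10, the type I keratin of differentiating epidermis, ran from 0.594 to 4.05 FPKM in Control (median 1.23) and from 0.693 to 3.49 in P.T.ATBx (median 1.12). Its highest values were in Control 10 and P.T.ATBx 9, and the next in each group were 1.79 and 1.49. Krt1, its type II partner, was above 0 in 3 libraries only: Control 10 at 1.11 FPKM, P.T.ATBx 9 at 0.854 and Control 8 at 0.0895. Krt77, another type II suprabasal keratin, was above 0 in those 3 libraries, at 2.40, 3.08 and 0.629 FPKM, and in Control 3 at 0.193. Krt10 was above 0 also in the 17 libraries where Krt1 was listed at 0.

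Krt80, a widely expressed type II keratin, was counted here with the suprabasal keratins. It had the narrowest range of the 9 tested, from 0.639 to 1.24 FPKM in Control (median 0.852) and from 0.491 to 0.930 in P.T.ATBx (median 0.656), with Control 3 highest. The suprabasal keratins Krt79 and Krt78 stayed at or below 0.369 and 0.129 FPKM. Krt79 was highest in Control 9 and P.T.ATBx 9 of their groups, and Krt78 in Control 3 and P.T.ATBx 7. Krt2 was above 0 in 1 library and Krt9 in 0.

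Hair keratins were close to absent. Of 8 inner root sheath keratins, 5 were listed at 0 in every library, and the summed level of all 8 reached at most 0.132 FPKM. Of 15 hair shaft keratins with a row, 9 were listed at 0 in every library, Krt36 reached 0.133 FPKM in Control 3, and Krt85 held only values of at most 5.53e-07 FPKM. Among the mucosal and other keratins, Krt23 reached 0.328 FPKM, Krt222 0.135 and Krt4 0.160, and Krt13, Krt24 and Krt76 were listed at 0 throughout. In 9 of 11 low members examined, every value was a whole multiple of the smallest within a tolerance of 0.1, the exceptions being Krt1 and Krt77 with their 3 and 4 values above 0.

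Set against each other within a library, simple keratins outweighed skin and hair keratins in 19 of the 20 libraries. The simple keratins took 21.9% to 92.6% of summed keratin FPKM in Control (median 84.0%) and 69.1% to 87.5% in P.T.ATBx (median 81.6%). Control 8 was the exception, with 1.18 FPKM of simple keratins in all against 5.37 FPKM of all keratins. Control 10, with a simple keratin share of 53.7%, and P.T.ATBx 9, the lowest of its group, were the libraries with the highest Krt1, Krt77 and Krt10. The ratio of simple to skin and hair keratins had a median of 5.34 in Control against 4.61 in P.T.ATBx and reached 12.9 in Control 3.

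**Figure D3:**
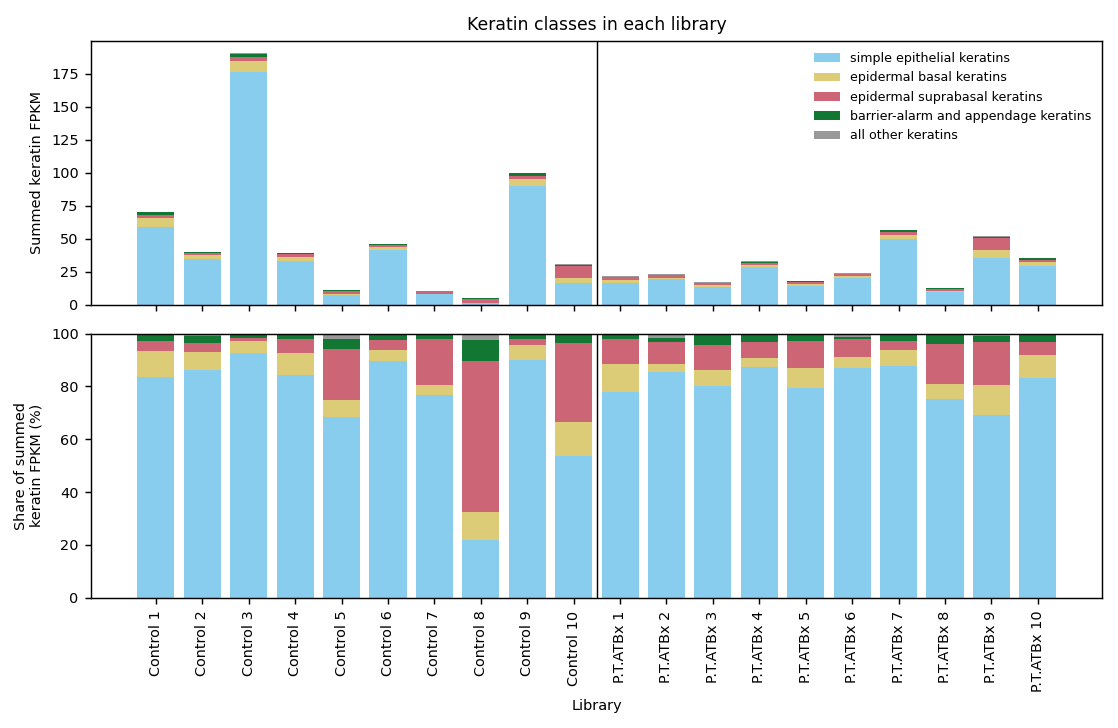
Upper panel, summed keratin FPKM of each library stacked by class; lower panel, the share of each class in percent, for the 10 libraries of Control and the 10 of P.T.ATBx either side of the line. Simple keratins fill most of each bar except in Control 8, where their share is 21.9%. The suprabasal share is widest in Control 8 and then Control 10, and within P.T.ATBx in P.T.ATBx 9.

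Relations between simple and skin keratins were tested within each group, and whether 1 relation differs from another was not. Relations were computed on log2(FPKM + 1) within each group of 10 for 9 pairs, which gave 18 relations. The tests were two-sided permutation tests of 100000 resamples, with Benjamini-Hochberg adjustment over the 18. The pairs of Krt8 with Epcam, Adipoq, Csn3 and Krt10 were chosen after values were seen, which the adjustment does not cover. Krt8 and Krt18 gave Pearson's r = 0.995 and Spearman's rho = 0.952 in Control (permutation p for r at 1e-05, the smallest it can give, adjusted p = 4.5e-05; for rho p = 8e-05, adjusted p = 0.00048). In P.T.ATBx they gave r = 0.963 and rho = 0.939 (permutation p = 4e-05 and p = 0.00022, adjusted p = 0.000144 and adjusted p = 0.000566). Without the 2 libraries farthest from the Krt8 median r was 0.987 in Control, with 0.930 in P.T.ATBx.

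Krt5 and Krt14 gave r = 0.962 and rho = 0.976 in Control (permutation p = 7e-05 and p = 5e-05, adjusted p = 0.00021 and adjusted p = 0.00045). In P.T.ATBx they gave r = 0.940 and rho = 0.745 (permutation p = 0.00031 and p = 0.0176, adjusted p = 0.00062 and adjusted p = 0.0288). Without the 2 farthest libraries r was 0.947 and 0.823. These 2 type II and type I pairs were thus closely related in both groups.

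Krt7 and Krt19 gave r = 0.916 and rho = 0.964 in Control (permutation p = 0.0002 and p = 0.00011, adjusted p = 0.000514 and adjusted p = 0.00048; r = 0.918 without 2 libraries). In P.T.ATBx they gave r = 0.749 and rho = 0.685 (permutation p = 0.00823 and p = 0.0347, adjusted p = 0.0106 and adjusted p = 0.0417). That relation rests on P.T.ATBx 7 and P.T.ATBx 8, without which r was 0.442.

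Between simple and basal keratins, Krt8 and Krt14 gave r = 0.919 and rho = 0.855 in Control (permutation p = 0.00026 and p = 0.00297, adjusted p = 0.000585 and adjusted p = 0.00535; r = 0.848 without Control 8 and Control 3). In P.T.ATBx they gave r = 0.632 and rho = 0.442, which did not pass (permutation p = 0.0524 and p = 0.205, adjusted p = 0.0589 and adjusted p = 0.231; r = 0.485 without P.T.ATBx 7 and P.T.ATBx 8). Krt18 and Krt5 gave r = 0.829 and rho = 0.867 in Control (permutation p = 0.00291 and p = 0.00218, adjusted p = 0.00436 and adjusted p = 0.0049; r = 0.774 without 2 libraries). In P.T.ATBx they gave r = 0.663 and rho = 0.721 (permutation p = 0.0358 and p = 0.0227, adjusted p = 0.0429 and adjusted p = 0.0315), a relation that rests on P.T.ATBx 7 and P.T.ATBx 8, without which r was 0.440. Whether the relations differ between the groups was not tested.

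Krt8 and Krt10, a pair chosen after the values were seen, gave r = -0.21 and rho = -0.35 in Control (permutation p = 0.555 and p = 0.331, adjusted p = 0.588 and adjusted p = 0.351; r = -0.16 without 2 libraries). In P.T.ATBx they gave r = 0.154 and rho = -0.18 (permutation p = 0.692 and p = 0.633, adjusted p = 0.692 and adjusted p = 0.633; r = 0.600 without 2 libraries). Krt10 was therefore not shown to move with the simple keratins in either group. Across all 20 libraries, as ranks of deviations from the group mean, Krt80 had a Spearman's rho between -0.21 and 0.0737 with the other 8 tested keratins.

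**Figure D4:**
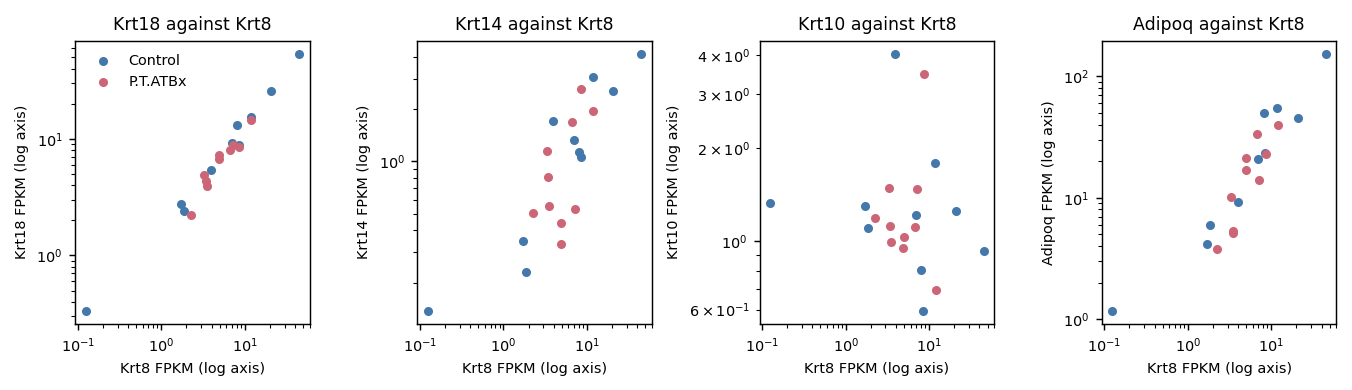
Krt8 FPKM (x axis, log) against Krt18, Krt14, Krt10 and the adipocyte gene Adipoq (y axes, log), with 1 point per library, Control in blue and P.T.ATBx in red. Krt18 and Adipoq climb with Krt8 over the whole range, Krt14 does so with more scatter, and Krt10 shows no such slope (r = -0.21 in Control, r = 0.154 in P.T.ATBx).

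Epcam, Adipoq and Csn3 moved with Krt8. In Control the sums of adipocyte, mammary, sebocyte, mesothelial and keratinocyte differentiation genes were, like Krt8, highest in Control 3. Of the sebocyte sum there, 1164 FPKM, Scd1 alone gave 1163. The skeletal muscle sum was highest of Control in Control 10. The melanocyte sum was highest in Control 8 but varied little, from 0.441 to 0.722 FPKM in Control. The part of neighbouring tissues in the keratin levels was not tested. Epcam, an adhesion molecule of simple epithelia, ran from 0.297 to 10.6 FPKM in Control and from 0.997 to 3.75 in P.T.ATBx, with Control 3 highest. Epcam was paired with Krt8 after values were seen, which the p-values do not take into account. With Krt8 it gave r = 0.972 and rho = 0.964 in Control (permutation p for r at 1e-05, adjusted p = 4.5e-05; for rho p = 2e-05, adjusted p = 0.00036; r = 0.952 without 2 libraries). In P.T.ATBx it gave r = 0.872 and rho = 0.733 (permutation p = 0.00136 and p = 0.0205, adjusted p = 0.00223 and adjusted p = 0.0307; r = 0.681 without P.T.ATBx 7 and P.T.ATBx 8). Cdh1, which encodes E-cadherin, was more even, at 2.24 to 4.60 FPKM in Control, with 1.99 to 3.17 in P.T.ATBx. Members of the simple and intestinal epithelial list did not all follow Krt8. Cldn4 and Spint2 were highest of Control in Control 3, but Spint1 and Cdh17 were lowest of Control there, at 7.37 and 0.120 FPKM. Over all 25 rows of that list the Control sums ran from 18.9 FPKM in Control 8 to 47.4 in Control 3.

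Intestinal markers were low. Cdx2, the intestinal transcription factor, and Tff3 were listed at 0 in every library, and the brush border gene Vil1 reached 0.204 FPKM and the intestinal cadherin Cdh17 0.798. The labels give the cell type as cancer cell of a colon line, and the mesenchymal filament gene Vim ran from 1808 to 2268 FPKM in Control, with 1865 to 2244 in P.T.ATBx.

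Adipocyte genes had their lowest and highest sums in the same libraries as Krt8. The summed level of 8 adipocyte genes ran from 68.2 FPKM in Control 8 to 3161 in Control 3 and from 101 in P.T.ATBx 8 to 779 in P.T.ATBx 7, and 0 of the 8 were at 0 throughout. Adipoq, which encodes adiponectin, ran from 1.17 to 154 FPKM in Control and from 3.76 to 39.5 in P.T.ATBx. Adipoq was also paired with Krt8 after values were seen, which the p-values do not take into account. With Krt8 it gave r = 0.970 and rho = 0.939 in Control (permutation p for r at 1e-05, adjusted p = 4.5e-05; for rho p = 0.00016, adjusted p = 0.00048; r = 0.925 without 2 libraries). In P.T.ATBx it gave r = 0.879 and rho = 0.855 (permutation p = 0.00092 and p = 0.00289, adjusted p = 0.00166 and adjusted p = 0.00535; r = 0.771 without 2 libraries).

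A list of 16 mammary epithelial genes, put together after the values were seen, also had its lowest and highest sums in Control 8 (5.73 FPKM) and Control 3 (91.8), and in P.T.ATBx 8 (9.24) and P.T.ATBx 7 (35.5). The milk protein genes Csn1s1, Csn1s2a, Csn2 and Wap were listed at 0 in every library. Lalba, another milk protein gene of the list, was at 0 in 3 libraries and reached 1.93 FPKM in Control 3. Other members were highest of Control elsewhere, Cited1 and Ltf in Control 9, Wfdc18 and Muc15 in Control 1. Csn3, which encodes kappa-casein, ran from 0.216 to 8.63 FPKM in Control and from 0.362 to 3.07 in P.T.ATBx. Csn3 too was paired with Krt8 after values were seen, which the p-values do not take into account. With Krt8 it gave r = 0.974 and rho = 0.952 in Control (permutation p for r at 1e-05, adjusted p = 4.5e-05; for rho p = 0.00014, adjusted p = 0.00048; r = 0.985 without 2 libraries). In P.T.ATBx it gave r = 0.803 and rho = 0.697 (permutation p = 0.00447 and p = 0.0303, adjusted p = 0.00619 and adjusted p = 0.0389), a relation that rests on P.T.ATBx 7 and P.T.ATBx 8, without which r was 0.511.

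Some epidermal differentiation genes, named after their values were seen, were highest in Control 10 and P.T.ATBx 9, the libraries with most Krt1, and others were not. Krtdap, a gene of differentiating keratinocytes, reached 4.45 FPKM in Control 10, and P.T.ATBx 9 had 4.94, with a median of 0.0858 in Control but 0 in P.T.ATBx. Dmkn, which encodes dermokine, reached 2.07 FPKM in Control 10, and P.T.ATBx 9 had 2.21. The cornified envelope gene Lor was above 0 in 2 libraries and reached 0.0898 FPKM in Control 10 but was listed at 0 in P.T.ATBx 9, and Sbsn was listed at 0 throughout. Of the same list, Ly6d, Cst6, Tgm1 and Perp were highest of Control in Control 3, where Krt1 was listed at 0, and Lgals7 and Pkp3 in Control 1. Over all 29 rows of the keratinocyte list the sums ran from 11.96 to 52.3 FPKM in Control, highest in Control 3. Of that highest sum, Ly6d alone gave 32.3 FPKM. In P.T.ATBx the sums ran from 12.4 to 31.4, highest in P.T.ATBx 9. The sum of 10 skeletal muscle genes was highest in Control 10 at 97.7 FPKM, against a Control median of 5.34, and in P.T.ATBx it was highest in P.T.ATBx 6 at 61.6.

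Melanocyte and mesothelial genes were low. The 7 melanocyte genes summed to 0.279 to 0.779 FPKM over all libraries, highest of Control in Control 8 at 0.722, with Tyrp1 and Oca2 at 0 throughout. The 5 mesothelial genes with a row summed to 1.14 to 4.10, highest of Control in Control 3 at 2.71. Of 14 hair follicle genes outside the keratins, 6 were at 0 throughout, and the sums stayed between 6.12 and 8.56 FPKM.

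No keratin passed the test between groups. Of 12788 genes tested on log2(FPKM + 1), 0.845% were called by limma with Benjamini-Hochberg adjustment at 0.05, 0.461% as higher and 0.383% as lower in P.T.ATBx. Of the 9 keratins tested, 0 were called and 1, Krt80, had an unadjusted p under 0.05, where 13.6% of all genes did. With no filter, 0 of the 33 keratins above 0 in some library were called, against 0.549% of 18588 genes (0.291% higher, 0.258% lower).

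All 9 tested keratins had a negative log2 fold change (P.T.ATBx minus Control), where 48.5% of all genes did, and several of them move together, so the 9 are not independent. Krt19 averaged 19.2 ± 20.02 FPKM in Control against 9.503 ± 5.41 in P.T.ATBx (SD, n = 10 for either) and a log2 fold change of -0.34 (95% interval -1.57 to 0.891, adjusted p = 0.848, limma). Krt18 had 13.7 ± 15.9 and 6.91 ± 3.42 FPKM and -0.32 (interval -1.42 to 0.783, adjusted p = 0.839, limma). Krt8 had 10.8 ± 13.4 and 5.67 ± 2.96 FPKM and -0.23 (interval -1.32 to 0.867, adjusted p = 0.889, limma). Each interval reaches from a decrease to an increase, so equal levels are not shown either. Below the Control median lay 8 of 10 P.T.ATBx libraries for Krt19, 9 for Krt18, 8 for Krt8 and 8 for Krt7, which had -0.17 (adjusted p = 0.872, limma).

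The sign of Krt8 and Krt7 depended on Control 3. Without that library they had log2 fold changes of 0.07 and 0.07, while Krt18 and Krt19 stayed negative at -0.03 and -0.06. Without the 4 libraries of highest summed FPKM, Krt8 had 0.22, Krt19 0.13, Krt7 0.12, Krt18 0.09 and the basal keratin Krt14 0.04.

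Krt14 had 1.57 ± 1.33 FPKM in Control, 1.06 ± 0.782 in P.T.ATBx and a log2 fold change of -0.24 (interval -0.800 to 0.330, adjusted p = 0.761, limma). Krt5 had 1.39 ± 1.10 and 0.808 ± 0.566 FPKM and -0.32 (interval -0.816 to 0.175, adjusted p = 0.610, limma). Krt17 had 0.822 ± 0.617 and 0.455 ± 0.356 FPKM and -0.29 (interval -0.651 to 0.0756, adjusted p = 0.504, limma). For Krt14, Krt5 and Krt17 the differences between group means were smaller than the Control SD.

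Krt10 had 1.44 ± 0.974 and 1.35 ± 0.786 FPKM and a log2 fold change of -0.03 (interval -0.393 to 0.336, adjusted p = 0.967, limma). It turned to 0.10 without Control 10. Krt80 had 0.888 ± 0.200 and 0.677 ± 0.140 FPKM and -0.17 (interval -0.301 to -0.0357, p = 0.0153, adjusted p = 0.237, limma), and 8 of 10 P.T.ATBx values were under the median of Control. Krt20, below the testing level, had -0.01 with no filter (adjusted p = 0.980, limma).

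**Figure D5:**
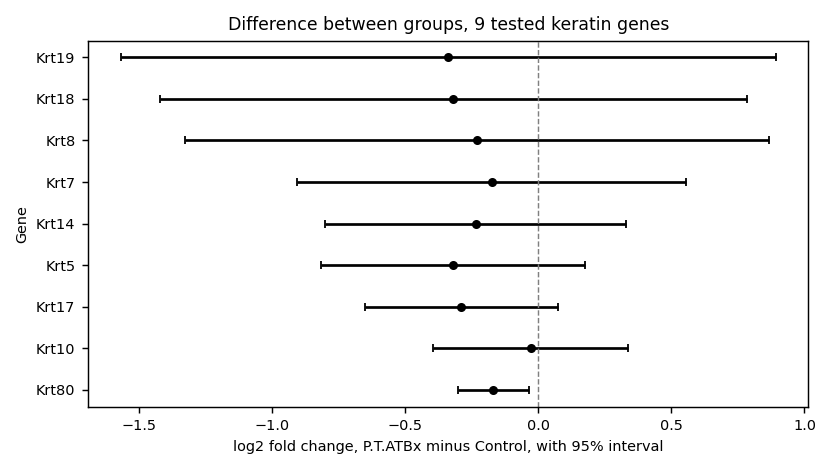
Log2 fold change (P.T.ATBx minus Control, log2(FPKM + 1) scale, points) with 95% intervals (bars) for the 9 tested keratin genes. Every interval crosses 0 except that of Krt80, whose adjusted p is 0.237, and the intervals of Krt19, Krt18 and Krt8 are the widest.

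Genes listed beside the keratins gave no call either, where 0.845% of all genes were called. All tested genes had a median log2 fold change of 0.00. Of 10 tested keratinocyte differentiation genes 0 passed and 10 were negative (median -0.13), among them Lgals7 (log2 fold change -0.33), Tgm1, the transglutaminase of the cornified envelope (-0.11), Pkp3 (-0.11) and Perp (-0.22). Of 10 tested simple and intestinal epithelial genes 0 passed and 9 were negative (median -0.21), with Lgals4 at 0.27 (adjusted p = 0.142, limma), Cdh1 at -0.24 (adjusted p = 0.264, limma), Spint2 at -0.34 and St14 at -0.23.

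Of 6 tested genes on the list headed keratin-binding and cytolinker genes 0 passed, 4 were positive and the median was 0.01. Trpm7, for which no binding to keratin is shown here, had the smallest p of them, with a log2 fold change of 0.10 (adjusted p = 0.191, limma). Plec, which encodes plectin, had -0.17 (means of 77.9 FPKM in Control, 69.4 in P.T.ATBx). Of 5 tested basal keratinocyte attachment genes 0 passed (median -0.02), with the hemidesmosome integrin Itgb4 at -0.20, the anchoring fibril collagen gene Col7a1 at 0.10 and Dst, which encodes dystonin, at 0.02. Of 6 tested genes for other intermediate filaments 0 passed and 6 were negative (median -0.12), with the lamin genes Lmnb1 at -0.13 and Lmnb2 at -0.10, Nes at -0.22 and Vim at -0.08.

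Of 13 tested keratinocyte and epithelial transcription regulators 0 passed, 8 were positive and the median was 0.01. Snai1, a repressor of epithelial genes, had 0.29 (adjusted p = 0.132, limma) and Klf5 had -0.14. Trp63, which encodes the basal keratinocyte factor p63, was at 0.732 to 1.36 FPKM in Control, with 0.713 to 1.496 in P.T.ATBx. The 8 adipocyte genes (median -0.43) and the 8 tested mammary genes (median -0.30) had 0 calls, with 8 and 7 negative members. The 9 tested skeletal muscle genes (median 0.25) had 0 calls and 9 positive members.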

How the data were processed

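The authors deposited 1 table of FPKM for 20 libraries, each row a gene symbol with its Entrez number. Per the submitters' processing notes the genome was mm10 (GRCm38); for aligner, quantifier and annotation the sources used here give no name. Libraries were total RNA from a stranded kit, per the labels' protocols. FPKM is not a count; read totals are unknown, which leaves the precision of low values unstated.

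Rows with a mean of at least 0.5 FPKM were tested as log2(FPKM + 1) with limma 3.58.1 (R 4.3.3), group as the only term, robust and trended moderation, two-sided, Benjamini-Hochberg at 0.05. Fold changes on this scale understate low genes. The fit was tested on simulated data. Relations, sums and figures used Python 3.11.15 (numpy 2.4.6, scipy 1.17.1, matplotlib 3.10.9).

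Named were all tested keratins, Krt20, and of other lists genes among the up to 4 smallest p and 2 highest means, not all of which are given, with Epcam, Cdh1, Trp63 and Vim. Members and lists were chosen with earlier results of these data known; the mammary list, other genes named and the pairs of Krt8 with Epcam, Adipoq, Csn3 and Krt10 were chosen after values were seen. Alternatives were a pseudocount of 0.1, no filter, a minimum of 1, quantile, median-of-ratios and TPM scaling, plain moderation, a replicate block and leaving out libraries.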

Additional observations from a re-analysis of the deposited data

Results flagged for a closer look

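Krt10 stood apart in 1 library of each group. In Control it was at 4.05 FPKM in Control 10, where the next library had 1.79, a gap of 0.513 of the range of log2(FPKM + 1) in the group. In P.T.ATBx it was at 3.49 FPKM in P.T.ATBx 9, where the next had 1.49, a gap of 0.605 of the range. Both exceed Dixon's 95% limit for 10 libraries; 20 groups of values were examined, and chance passes about 1 in 20. Krt1, Krt77 and Krtdap were highest in the same 2 libraries.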

How the results depend on the processing

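Under every alternative 0 keratins were called, and the adjusted p of single keratins stayed between 0.159 and 0.996 (limma). Of the log2 fold changes recomputed for the 9 tested keratins, 256 kept their sign and 12 uncalled ones turned: Krt10 to 0.013 with quantile normalization, 0.0017 without Control 1, 0.097 without Control 10, 0.018 without P.T.ATBx 7 and 0.0040 without the 3 libraries with Krt1 above 0; Krt8 and Krt7 to 0.068 and 0.075 without Control 3; and, without the 4 libraries of highest summed FPKM, Krt8 to 0.22, Krt19 to 0.13, Krt7 to 0.12, Krt18 to 0.094 and Krt14 to 0.041. Leaving out 1 library gave -0.138 to 0.097 for Krt10, -0.527 to 0.068 for Krt8, -0.323 to 0.075 for Krt7, -0.626 to -0.031 for Krt18 and -0.677 to -0.064 for Krt19. Leaving out libraries by their sum or by Krt1 was chosen after seeing the data. Over all genes, 59 were higher and 49 lower. The TPM scale gave 20 and 29, leaving out 1 library gave 38 to 104 higher and 31 to 89 lower (most without Control 1, fewest without P.T.ATBx 4, and 78 lower without Control 2), 31 were higher without the 4 libraries and 33 higher without the 3; the cause was not tested. The simple keratin share differed by 2.35 percentage points between group medians (Control higher) and by 0.843 to 3.85 on leaving out 1 library. In P.T.ATBx, without the 2 libraries farthest from the median, Krt7 with Krt19 (r = 0.442, adjusted p = 0.299), Krt18 with Krt5 (r = 0.440, adjusted p = 0.299), Krt8 with Epcam (r = 0.681, adjusted p = 0.105) and Krt8 with Csn3 (r = 0.511, adjusted p = 0.245) no longer passed the permutation test, which then had fewer libraries. Between libraries of the same replicate number, deviations from the group means had correlations from -0.31 to 0.393. Of these, 5 of 10 were above 0.1, and 3 of 10 Control libraries were closest to their own number. Whether equal replicate numbers mark a pair was not tested. The replicate block gave 65 higher and 59 lower genes and 0 keratins. Depth limits all members below 0.5 FPKM.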

Other observations

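The rows whose pattern was most like Krt8 were found by Spearman's rho over deviations from the group mean in all 20 libraries, among 12787 other tested rows, after the values were seen. Next to Krt18 (rho = 0.962), Krt19 (0.956) and Krt7 (0.953), the 10 closest held Scg3 (0.956), the growth factor receptor gene Fgfr2 (0.955), Tusc5 (0.955), the prolactin receptor gene Prlr (0.952), Pck1 (0.947), an enzyme of glycerol and glucose synthesis, the tight junction gene Cldn4 (0.946) and the lipid droplet gene Plin4 (0.941). Epcam ranked 17, Csn3 25 and Adipoq 34. Krt17 ranked 42, Krt5 172 and Krt14 215, while Krt80 ranked 7707 and Krt10 9435.

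For Krt14 the closest rows were Hp, which encodes haptoglobin (rho = 0.941), Krt5 (0.925), Krt17 (0.884) and Lcn2, which encodes lipocalin-2 (0.883). These are descriptions with no test, and all genes of a comparison were read in the same 20 libraries. Among the rows most like Krt10 there was no keratin in the first 12, Krtdap ranked 636, and the closest was Arl13b (0.811).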
